A study of Mus musculus with 8 samples.

Results

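The genes that build the extracellular matrix of the heart, and those that mark its fibroblasts, were followed in mouse hearts with and without Ssbp1, which encodes mtSSB, the mitochondrial protein that coats single-stranded DNA. The set holds 64 of the 55383 genes of the deposited table. It was chosen by name alone, with no measured value: every protein-coding gene whose symbol begins with Col, digits and the letter a (44 collagen chains and Col4a3bp), and 19 genes of other matrix, crosslinking, turnover and fibroblast proteins. Ctgf, the older symbol of Ccn2, is also in the rule and has no row of its own. Col4a3bp matches by its letters only, since it encodes a ceramide transfer protein and no collagen.

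Whole hearts were taken from mice aged about 5 weeks on the inbred C57BL/6N background, and total RNA was sequenced by strand. Both knockout mice (L/L, cre; Ssbp1-/- in the labels) carried Ssbp1 alleles with exon 3 flanked by loxP sites and a Cre recombinase under the muscle creatine kinase promoter (Ckmm-cre). Both controls (L/L; Ssbp1+/+ in the labels) carried the flanked alleles without Cre. The labels mention the Cre cross for every sample and do not name the mice that carried Cre, so the genotype field was read as these groups. For 2 further mice the title and the genotype field contradict each other, and they entered no comparison. The Ckmm promoter is active in cardiac and skeletal muscle cells, so other heart cells, fibroblasts among them, are not the cells in which the gene is meant to be removed. In RNA of a whole heart, fewer cells of a type and less RNA per cell cannot be told apart.

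Collagens are trimers of chains wound into a triple helix. Fibrillar collagens give tissue its tensile strength, type IV collagen forms the sheet-like network of basement membranes around muscle cells and capillaries, and type VI collagen forms beaded filaments between them. In the heart, fibroblasts make most of the fibrillar collagen, and after injury they are known to turn up collagen I, collagen III, periostin and fibronectin. The chains are folded and hydroxylated in the cell, trimmed outside it and crosslinked by lysyl oxidases.

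Several collagen genes lie in pairs that are read in opposite directions from neighbouring starts, and 3 such pairs belong to the set. Col4a1 (minus strand) and Col4a2 (plus strand) start at positions 11312826 and 11312805 of chromosome 8, so that their first 22 bases overlap. Col4a4 and Col4a3 start 71 bases apart on chromosome 1, and Col4a6 and Col4a5 start 1308 bases apart on chromosome X. The stretch between the Col4a4 and Col4a3 starts is shown because the levels of its pair are compared within each heart further on, together with the 250 bases before the RefSeq start of Col3a1, the fibrillar collagen gene with the highest normalised count, and of Col11a2, the gene of the set with the smallest p, whose RefSeq start lies upstream of the GENCODE one. All are from GRCm38.p6 (RefSeq), 5′ to 3′ on the plus strand, on which Col3a1, Col11a2 and Col4a3 are read. Capitals mark matches to 5 short motifs searched on both strands. These are the CCAAT box, the TATA box written as TATAAA, the Sp1 core GGGCGG, the AP-1 site TGANTCA and the Smad-binding element CAGACA.
Col4a4 to Col4a3, chr1:82586850-82586920: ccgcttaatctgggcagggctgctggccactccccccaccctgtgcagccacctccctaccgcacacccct
Col3a1, chr1:45311288-45311537: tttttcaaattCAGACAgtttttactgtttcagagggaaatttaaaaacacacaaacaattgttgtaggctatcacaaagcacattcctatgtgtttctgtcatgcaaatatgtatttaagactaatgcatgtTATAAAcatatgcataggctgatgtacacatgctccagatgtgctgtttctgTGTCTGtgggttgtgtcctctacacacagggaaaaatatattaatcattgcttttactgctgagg
Col11a2, chr17:34038888-34039137: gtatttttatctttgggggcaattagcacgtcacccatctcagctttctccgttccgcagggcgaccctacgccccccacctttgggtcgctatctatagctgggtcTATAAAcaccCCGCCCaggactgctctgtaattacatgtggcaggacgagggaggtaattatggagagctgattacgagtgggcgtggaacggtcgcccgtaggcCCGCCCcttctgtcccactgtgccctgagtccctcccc

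The stretch between Col4a4 and Col4a3 holds none of the 5 motifs. In the Col3a1 window, CAGACA begins 239 bases before the start on the plus strand and 65 before it on the minus strand, and TATAAA begins 117 bases before it. In the Col11a2 window, TATAAA begins 143 bases before the start, and GGGCGG lies on the minus strand at 133 and 38 bases before it. The RefSeq promoter table held windows for 44 of the 64 genes. GGGCGG occurred in 26 of these 44 windows (59.1%) and in 32.9% of all 27025 promoters of that length. TATAAA occurred in 6 (13.6%, against 13% of all), CCAAT in 13 (29.5%, against 34.5%), CAGACA in 10 (22.7%, against 17.1%) and TGANTCA in 1 (2.27%, against 6.87%). These are matches of letters in a fixed window and describe sequence alone.

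The libraries held 24067849 and 19716305 reads in the first and second control and 25558246 and 25682093 in knockout replicates 1 and 2, of which 62.7%, 66.7%, 58.0% and 56.2% were mitochondrial. Levels are given as deposited, in normalised counts, that is reads divided by 1 size factor per library. The heart origin was plain from the cardiomyocyte markers, whose 8 genes summed to between 606448 and 635807 normalised counts in all 4 hearts. Ssbp1 itself stood at 177 and 216 normalised counts in control hearts and 170 and 163 in knockout hearts, a log2 fold change of -0.23 (standard error, SE, 0.16, limma adjusted p = 0.890). The value counts reads of all cells of the heart and of all exons of the gene, and their parts in it were not measured. It does not settle whether the genotype labels are right.

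Of the 64 genes, 50 reached a normalised count of 10 in at least 2 of the 4 hearts and were tested: 30 collagens, the 19 other genes and Col4a3bp. None differed between knockout and control at an adjusted p under 0.05 from limma, fitted on log2(normalised count + 1) over 14522 genes. Over all genes tested the same rule called 0.117% (17 genes), with 0.0757% higher and 0.0413% lower in the knockouts. The smallest adjusted p among the 50 was 0.755 (limma). Without adjustment, 4 genes of the set had a p under 0.05, against 6.11% of all genes. Of these, Col11a2 and Col16a1 were higher in the knockouts (3.08% of all genes) and Timp3 and Col12a1 lower (3.02%). With edgeR or DESeq2 on the recovered reads the counts were also 0 after adjustment and 4 before it. The count of 4 changed when 1 library was left out, a fit that leaves a lone heart in 1 group. Both knockout hearts lay outside the range of both controls in 18 of the 50 genes, 6 higher and 12 lower, where 18.1% of all genes were higher and 17.5% lower in this way (35.6% in all). The median log2 fold change was -0.15 over the 50 genes and 0.0024 over all genes. It was -0.021 without control replicate 1 and 0.027 without knockout replicate 1. The 95% interval of the difference left out a 2-fold change in either direction for 35 of the 50 genes and a 1.5-fold change for 15. The same counts were not taken over all genes, so they are not read as particular to the set.

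**Figure D1:**
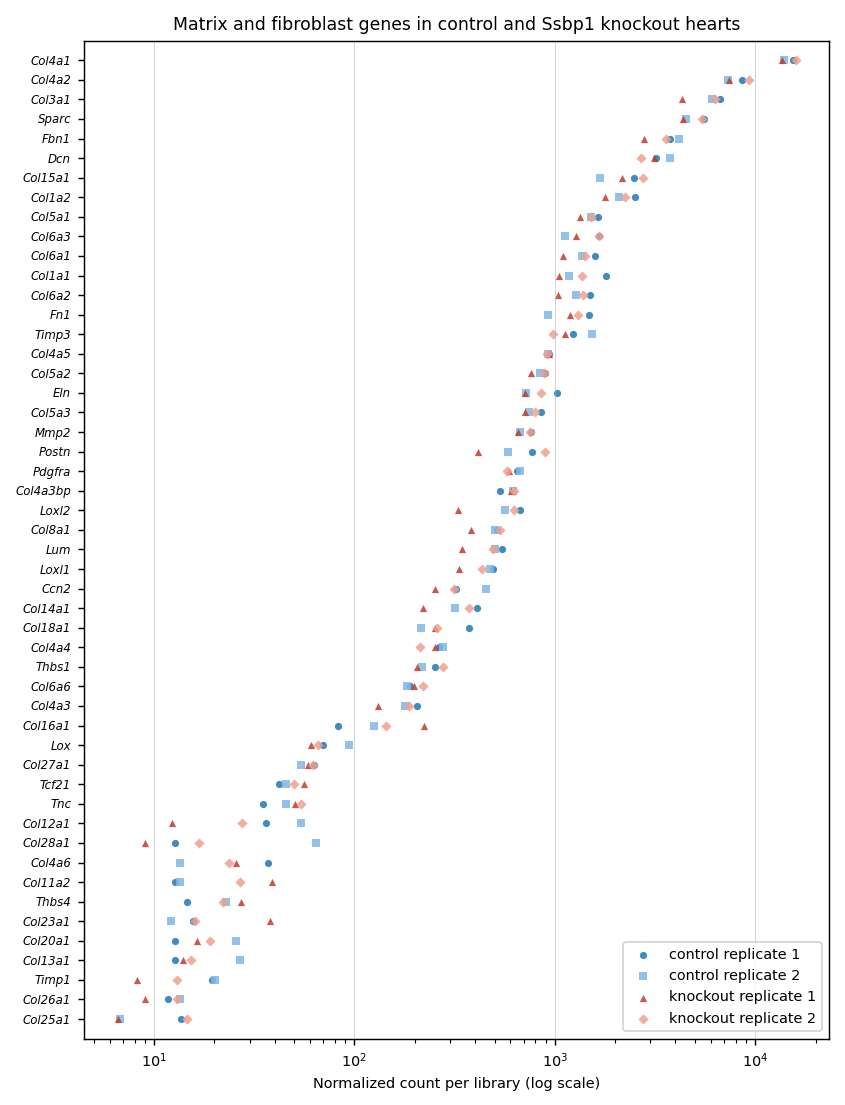
Normalised counts of the 50 genes tested in each of the 4 hearts, on a logarithmic axis, with 1 row per gene ordered by mean level. Blue symbols are the controls and red symbols the knockouts; Col4a1 lies at the top between 13555 and 15880, and knockout replicate 1 (dark triangle) is the lowest heart in 28 of the 50 rows.

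**Figure D2:**
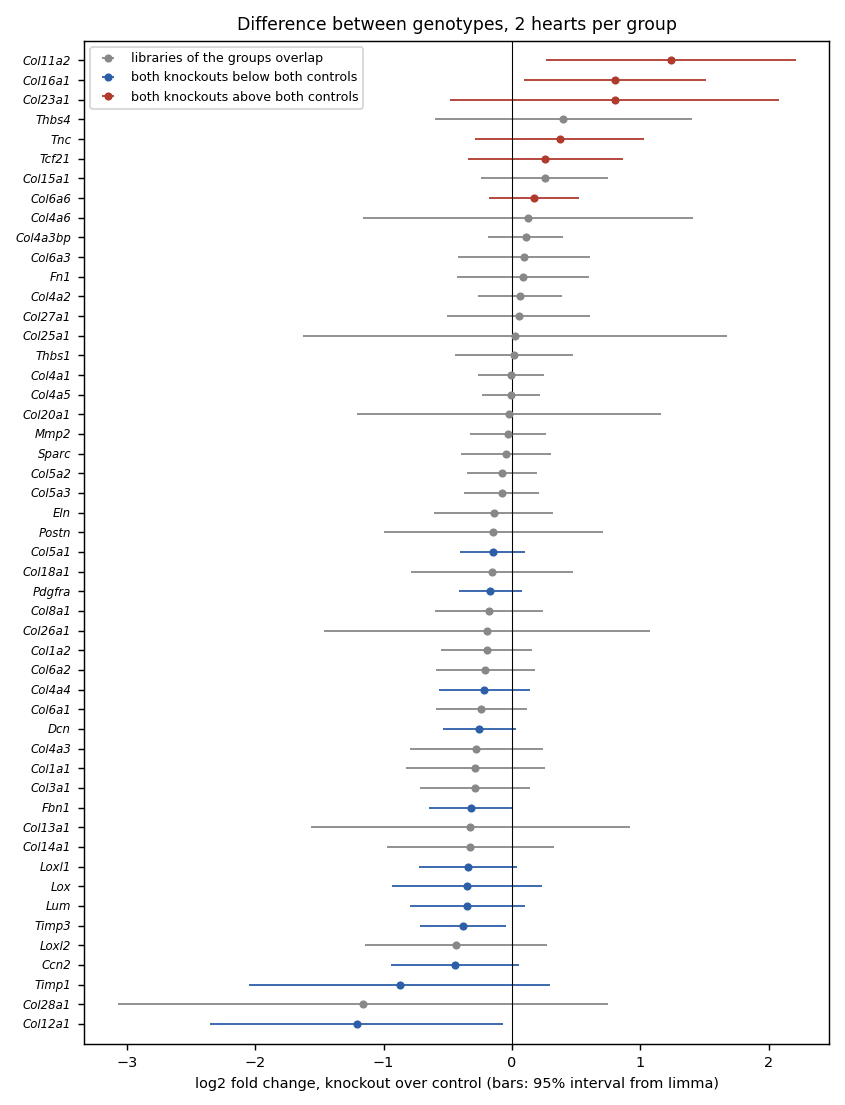
Log2 fold change of knockout over control for each gene tested, with 95% intervals from limma and 2 hearts per group. Blue and red mark genes whose 2 groups did not overlap; the intervals of Col11a2, Col16a1, Timp3 and Col12a1 are the ones that leave out 0, and no adjusted p is under 0.755.

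Among the fibrillar collagens, 8 of 11 were tested. Col3a1, the chain of the homotrimeric collagen III that accompanies collagen I in soft tissue, lies on chromosome 1 from 45311538 to 45349706 and was the most abundant, at 6646 and 6092 normalised counts in control hearts and 4299 and 6298 in knockout hearts. Knockout replicate 1 was the lowest heart, and knockout replicate 2 lay between both controls. The log2 fold change was -0.29 (SE 0.18, 95% interval -0.72 to 0.14, limma adjusted p = 0.862). Col1a2, the α2 chain of collagen I, was at 2511 and 2090 in control hearts and 1777 and 2245 in knockout hearts (log2 fold change -0.20, SE 0.15). Col1a1, the α1 chain, which is named here after its values were seen, was at 1801 and 1182 in control hearts and 1047 and 1369 in knockout hearts (log2 fold change -0.28, SE 0.22). Its log2 fold change was 0.019 without control replicate 1. Both collagen I chains overlapped between the genotypes, and for both control replicate 1 was the highest and knockout replicate 1 the lowest heart.

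Collagen V starts the assembly of collagen I fibrils. Its chain Col5a1 stood at 1642 and 1517 in control hearts and 1333 and 1516 in knockout hearts, so that the groups were parted by less than 1 normalised count (log2 fold change -0.15, SE 0.11, limma adjusted p = 0.887). Col5a2 and Col5a3 overlapped between the groups, each with a log2 fold change of -0.08 and standard errors of 0.11 and 0.12. Col27a1, with a mean of 58.2 in the controls and 60.2 in the knockouts, also overlapped.

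Col11a2, a chain of the collagen XI of cartilage fibrils, had the largest positive difference of the set, at a low level. The gene lies on chromosome 17 from 34039437 to 34066685. Its values were 12.7 and 13.5 normalised counts in control hearts and 38.7 and 26.8 in knockout hearts, and both knockouts were above both controls. The log2 fold change was 1.24 (SE 0.40, 95% interval 0.27 to 2.21, limma adjusted p = 0.755), and it rests on 105 reads over the 4 hearts. It was 0.98 without knockout replicate 1. The cartilage collagens Col2a1 and Col11a1 stayed under 5 normalised counts in every heart, as did their companion Col24a1 outside control replicate 1 (5.86). The 8 cartilage markers, led in definition by Acan, summed to between 5 and 18 per heart, and none was tested.

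Basement membrane and network collagens were the most abundant group, and they were the group with the smallest median difference among the collagen roles (-0.0066 on the log2 scale, 9 of 11 tested). Col4a1, which with Col4a2 forms the common collagen IV trimer, was at 15494 and 13988 normalised counts in control hearts and 13555 and 15880 in knockout hearts. The log2 fold change was -0.0049, with a 95% interval of -0.26 to 0.25. Its sign turned positive under equal nuclear totals, TMM scaling and edgeR, with values of 0.0093 or less. Col4a2 was at 8590 and 7349 in control hearts and 7422 and 9305 in knockout hearts (log2 fold change 0.06, 95% interval -0.26 to 0.39). In both genes knockout replicate 2 was the highest of the 4 hearts and the genotypes overlapped.

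Col15a1, a basement membrane collagen of muscle and vessels, was at 2474 and 1685 in control hearts and 2157 and 2749 in knockout hearts. The controls differed more from each other than the genotypes did (log2 fold change 0.25, SE 0.20, limma adjusted p = 0.899). Col4a5 was the steadiest abundant gene of the set, at 932 and 923 in control hearts and 935 and 912 in knockout hearts. Col4a3 and Col4a4, chains of the collagen IV trimer known best from the kidney filter, had log2 fold changes of -0.28 and -0.22 (SE 0.21 and 0.15). Col8a1, Col18a1 and Col4a6 overlapped between the groups, with log2 fold changes of -0.18, -0.16 and 0.12. The sign for Col4a6 went against its means, 25.3 in control hearts and 24.6 in knockout hearts, and turned under edgeR (-0.065) and DESeq2 (-0.059).

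The 3 most abundant chains of collagen VI, Col6a1, Col6a2 and Col6a3, overlapped between the genotypes too. Col6a1 was at 1584 and 1366 normalised counts in control hearts and 1103 and 1408 in knockout hearts, a log2 fold change of -0.24 (SE 0.15). Col6a2 was at 1498 and 1281 in control hearts and 1040 and 1382 in knockout hearts, a log2 fold change of -0.21 (SE 0.16). Col6a3, the largest chain, was at 1663 and 1121 in control hearts and 1282 and 1656 in knockout hearts, a log2 fold change of 0.09 (SE 0.21). Col6a6 was a little higher in both knockouts (199 and 220) than in both controls (189 and 183), with a log2 fold change of 0.17 (SE 0.14, limma adjusted p = 0.903). Col28a1 was at 64.7 in control replicate 2 and between 9.06 and 16.8 in the other 3 hearts.

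Fibril-associated collagens sit on the surface of fibrils and link them to other matrix. Col16a1 (chromosome 4, 130047840 to 130099283) was at 83.1 and 125 normalised counts in control hearts and 223 and 143 in knockout hearts, so that both knockouts were above both controls. Its log2 fold change was 0.80 (SE 0.29, 95% interval 0.09 to 1.51, limma adjusted p = 0.796), and 0.48 without knockout replicate 1. Col12a1 (chromosome 9, 79598991 to 79718831) was at 36.2 and 53.9 in control hearts and 12.4 and 27.5 in knockout hearts, lower in both knockouts. Its log2 fold change was -1.21 (SE 0.47, 95% interval -2.35 to -0.07, limma adjusted p = 0.801), on 128 reads in all, and -0.66 without knockout replicate 1. Col14a1, at 407 and 317 in the controls, was at 219 in knockout replicate 1 and 373 in knockout replicate 2, which overlapped the controls. Col20a1 overlapped between the groups as well, with means of 19.2 and 17.8.

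The transmembrane and other collagens were near the limit of what was tested. Col23a1 was at 15.6 and 12.1 in control hearts and 37.9 and 16.1 in knockout hearts. Both knockouts were higher, but knockout replicate 2 by less than 1 normalised count (log2 fold change 0.80, SE 0.53, limma adjusted p = 0.878). Col13a1 and Col26a1 overlapped between the groups, with means between 11.0 and 19.8, and Col25a1 had means of 10.2 in control hearts and 10.6 in knockout hearts. Col4a3bp, no collagen, was at 531 and 616 in control hearts and 602 and 629 in knockout hearts (log2 fold change 0.11, SE 0.12).

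The filter left out 14 collagens. Col9a1 and Col6a4 were listed at 0 in all 4 hearts. Col2a1, Col7a1, Col8a2, Col9a2, Col9a3, Col10a1, Col11a1, Col17a1, Col19a1, Col22a1, Col24a1 and Col6a5 held between 1 and 40 reads over the 4 hearts. Col7a1, the anchoring fibril collagen of skin, had the most reads of these, at 5.86 and 8.08 normalised counts in control hearts and 4.94 and 16.8 in knockout hearts.

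Adhesive and matricellular proteins tie cells to the matrix or tune that contact. Sparc, a collagen-binding glycoprotein, was at 5569 and 4517 in control hearts and 4349 and 5413 in knockout hearts (log2 fold change -0.05, SE 0.15). Fn1, fibronectin, was at 1475 and 930 in control hearts and 1187 and 1304 in knockout hearts, with both knockouts inside the range of the controls (log2 fold change 0.09, 95% interval -0.43 to 0.60). Postn, periostin, a marker of activated fibroblasts, was at 773 and 583 in control hearts and 412 and 894 in knockout hearts. The knockouts thus held both the lowest and the highest of the 4 values, and the log2 fold change of Postn was -0.15 with a standard error of 0.35.

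Ccn2 encodes connective tissue growth factor, a target of TGF-beta and of mechanical stretch. It was at 322 and 455 in control hearts and 251 and 313 in knockout hearts, lower in both knockouts (log2 fold change -0.45, SE 0.21, limma adjusted p = 0.809). Tnc, tenascin C, was low, at 35.2 and 45.8 in control hearts and 50.3 and 54.3 in knockout hearts (log2 fold change 0.37, SE 0.27, limma adjusted p = 0.890). Thbs1 and Thbs4, which encode thrombospondins, overlapped between the groups, with log2 fold changes of 0.02 and 0.40.

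The 5 elastic fibre and crosslinking genes all had negative log2 fold changes, from -0.44 to -0.14, and none passed the test. The log2 fold change was negative in 34 of the 50 genes tested in the set and in 49.5% of all genes. Fbn1, which encodes the microfibril protein fibrillin 1, was at 3767 and 4148 in control hearts and 2788 and 3597 in knockout hearts. Its log2 fold change was -0.32 (SE 0.14, 95% interval -0.65 to 0.01, limma adjusted p = 0.806). Loxl1, a lysyl oxidase-like enzyme of elastic fibres, was at 490 and 473 in control hearts and 331 and 435 in knockout hearts (log2 fold change -0.34, SE 0.16, limma adjusted p = 0.809). Both genes, and Lox with a log2 fold change of -0.35 (SE 0.24), were lower in both knockouts than in both controls, as were 17.5% of all genes. Loxl2 was at 673 and 564 in control hearts and 330 and 627 in knockout hearts, and Eln, elastin, at 1028 and 719 in control hearts and 709 and 855 in knockout hearts. These 2 genes overlapped between the groups.

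The small leucine-rich proteoglycans of the set coat collagen fibrils. Dcn, decorin, was at 3185 and 3751 normalised counts in control hearts and 3111 and 2701 in knockout hearts (log2 fold change -0.25, SE 0.12, limma adjusted p = 0.810). Lum, lumican, was at 542 and 504 in control hearts and 343 and 491 in knockout hearts (log2 fold change -0.35, SE 0.18, limma adjusted p = 0.833). For both, the controls were above the knockouts, and for Dcn the lowest heart was knockout replicate 2, not knockout replicate 1.

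Of the genes of matrix turnover, Timp3, an inhibitor of metalloproteinases that stays bound to the matrix, had the smallest p among those lower in the knockouts. The gene lies on chromosome 10 from 86300372 to 86349506. It was at 1229 and 1529 in control hearts and 1130 and 982 in knockout hearts. The log2 fold change was -0.38 (SE 0.14, 95% interval -0.71 to -0.04, limma adjusted p = 0.796). Timp1, another inhibitor and a gene known to go up in injured hearts, was at 19.5 and 20.2 in control hearts and 8.24 and 13.01 in knockout hearts (log2 fold change -0.88, SE 0.48, limma adjusted p = 0.837). Mmp2, gelatinase A, was at 760 and 672 in control hearts and 655 and 748 in knockout hearts, and the genotypes overlapped.

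The 2 fibroblast identity genes stood in opposite directions. Pdgfra, the receptor that marks cardiac fibroblasts, was at 647 and 670 in control hearts and 592 and 579 in knockout hearts (log2 fold change -0.17, SE 0.10, limma adjusted p = 0.861). Tcf21, the transcription factor of the same cells, was at 42.0 and 45.8 in control hearts and 56.0 and 49.7 in knockout hearts (log2 fold change 0.26, SE 0.25, limma adjusted p = 0.915). Neither gene overlapped between the groups, and neither passed the test.

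Levels of different genes were compared per kilobase of exon, with every annotated exon position of a gene counted once. This length can exceed that of the transcripts expressed in the heart, which was not measured. On that scale Col4a1 led the set, with a control mean of 1975 normalised counts per kb, followed by Sparc with 1331 and Col4a2 with 1204. Col3a1 followed with 649 and Dcn with 594. Col6a1, Col15a1 and Fbn1 stood together at 337, 327 and 326, which did not differ beyond the spread between the 2 controls. The knockout means followed the same order for the first 5 genes, at 1972, 1288, 1264, 540 and 498. For Col3a1 and Dcn this order held for the means and not for every heart. Per kb, Dcn was above Col3a1 in control replicate 2 and in knockout replicate 1.

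Summed over the 64 genes, the set held 8010 and 7104 per 1000000 nuclear normalised counts in control hearts and 6393 and 7971 in knockout hearts. The means were 7557 ± 641 and 7182 ± 1115 (SD, n = 2 hearts per group), and the knockouts held both the lowest heart and one within the range of the controls. As a share of all normalised counts, mitochondrial ones included, the order of the means turned, with 2678 ± 440 per 1000000 in control hearts and 3090 ± 572 in knockout hearts. The mitochondrial share was lower in both knockouts, as given above.

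The matrix genes differed between hearts of the same genotype, and most of them in the same direction. The difference between the genotypes was smaller than the larger of the 2 gaps between hearts of 1 genotype in 40 of the 50 genes (80%), against 76.0% of all genes tested. Knockout replicate 1 was the lowest of the 4 hearts in 28 of the 50 (56%), against 23.5% of all genes, and control replicate 1 the highest in 21 (42%), against 25.6%. The median log2 difference between knockout replicates 1 and 2 was -0.25 over the set and 0.0021 over all genes. Between control replicates 1 and 2 it was 0.11 over the set and 0.0019 over all genes. Of the 35 genes with a mean of at least 100, knockout replicate 1 was lowest in 22. In 39 of the 50 genes (78%, against 49.7% of all genes) knockout replicate 1 was below knockout replicate 2. The median size of that gap was 0.32 on the log2 scale over the set and 0.19 over all genes, while the gap between the controls had a median size of 0.23 in both. The genes come from the same 4 libraries and are not independent of each other.

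**Figure D3:**
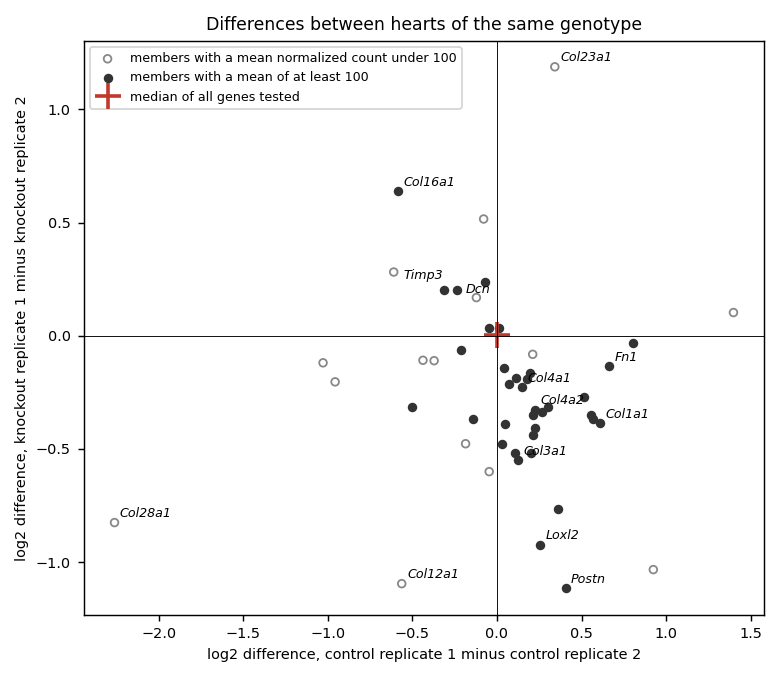
Log2 difference between control replicates 1 and 2 (horizontal) against that between knockout replicates 1 and 2 (vertical) for the 50 genes tested. Filled points have a mean normalised count of at least 100; 39 of the 50 genes lie below the horizontal line, and the cross shows the medians of all genes tested, 0.0019 and 0.0021.

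Within a heart, the ratio of chains that build 1 protein does not depend on the scaling between libraries. The ratios are of normalised counts, not divided by exon length unless stated. They compare hearts and do not give the proportions of the chains. Col6a1 to Col6a2 was 1.06 and 1.07 in control hearts and 1.06 and 1.02 in knockout hearts. Its highest value exceeded its lowest 1.05-fold, while each of the 2 genes spanned 1.44-fold over the same hearts. Per kb of exon this ratio was 2.01 and 2.03 in control hearts and 2.02 and 1.94 in knockout hearts. Col6a3, also a chain of collagen VI, was not put in a ratio. Its log2 fold change was 0.09, where those of Col6a1 and Col6a2 were -0.24 and -0.21, so the steady ratio covers these 2 chains only. Col4a1 to Col4a2, the pair with overlapping starts, was 1.80 and 1.90 in control hearts and 1.83 and 1.71 in knockout hearts, a span of 1.12-fold, where Col4a1 itself spanned 1.17-fold and Col4a2 1.27-fold.

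Col1a1 to Col1a2 was 0.717 and 0.565 in control hearts and 0.589 and 0.610 in knockout hearts, and Col1a1 to Col3a1 was 0.271 and 0.194 in control hearts and 0.244 and 0.217 in knockout hearts. For both ratios the knockouts lay within the range of the controls. Per kb of exon, Col1a1 to Col1a2 was above 1, at 1.36 and 1.07 in control hearts and 1.12 and 1.15 in knockout hearts. Col4a3 to Col4a4, the pair on both sides of the 71-base stretch printed above, varied more, from 0.520 in knockout replicate 1 to 0.882 in knockout replicate 2, with the controls at 0.777 and 0.644. Col4a5 to Col4a6 ran from 25.1 to 68.5 in the controls alone, on the low counts of Col4a6.

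**Figure D4:**
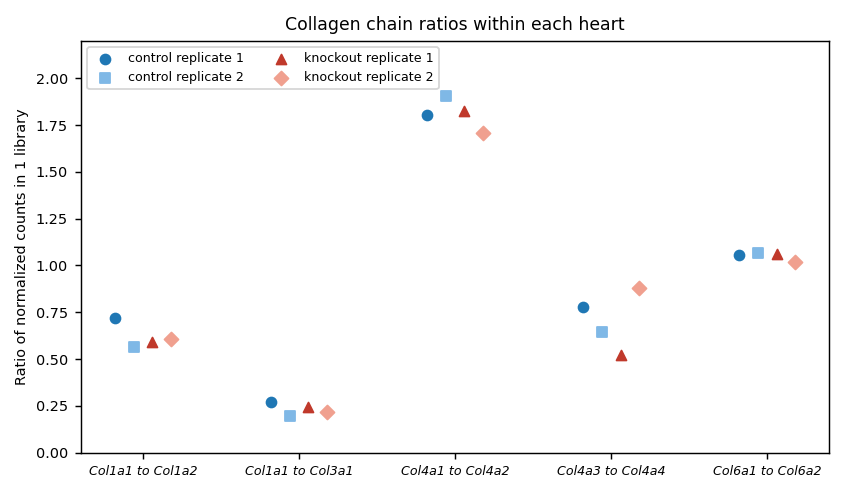
Ratios of normalised counts of 2 collagen chains within each of the 4 hearts, on a linear axis from 0. Controls and knockouts overlap in each of the 5 pairs shown; Col6a1 to Col6a2 has the narrowest spread, with all 4 hearts between 1.02 and 1.07.

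Other genes of the matrix, its processing, turnover and receptors, of TGF-beta signalling and of activated fibroblasts were read from the same fit. They were 133 in 6 lists, none of them in the set. Of the 124 tested, none passed an adjusted p under 0.05 in limma. At an unadjusted p under 0.05, 1 was higher and 18 were lower in the knockouts (14.5% lower, against 3.02% of all genes). The log2 fold change was negative in 96 (77.4%, against 49.5% of all genes), with a median of -0.16. The count of 19 fell without knockout replicate 1, a fit that leaves 1 knockout heart. In 44 genes (35.5%) both knockouts were below both controls, against 17.5% of all genes. The lists were chosen with earlier results of these data known, so these shares describe them and test nothing. Their genes come from the same 4 libraries and are not independent of each other.

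The 18 lower genes came mainly from the list of other matrix genes. There, 11 of 37 tested had an unadjusted p under 0.05, all of them lower, where 3.02% of all genes were lower and 3.08% higher. The median log2 fold change of that list was -0.28. Fbln2, fibulin 2, was at 1452 and 1260 normalised counts in control hearts and 918 and 982 in knockout hearts (log2 fold change -0.51, SE 0.11, limma adjusted p = 0.530). Fbln1, fibulin 1, was at 554 and 589 in control hearts and 409 and 402 in knockout hearts (log2 fold change -0.49, SE 0.11, limma adjusted p = 0.547). Both fibulins, glycoproteins that bind elastic fibres and basement membranes, were lower in both knockouts, by more than the gap between hearts of 1 genotype. The other 9 were Efemp1, Lama2, Tnxb, Thbs3, Ecm1, Bgn, Ogn, Mfap5 and Dpt, with log2 fold changes from -1.33 (Efemp1) to -0.28 (Ogn).

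Of the enzymes that fold, hydroxylate and trim collagen, 25 were tested. Of these, 1 was lower at an unadjusted p under 0.05 in limma, against 3.02% of all genes. The log2 fold change was negative in 21 of them, against 49.5% of all genes, with a median of -0.09. Both knockouts were below both controls in 5, close to the share of 17.5% over all genes. They were above both in 0, against 18.1% of all genes. Pcolce, which speeds the removal of the procollagen tail, was at 416 and 323 in control hearts and 278 and 282 in knockout hearts (log2 fold change -0.39, SE 0.16, limma adjusted p = 0.806). Adamts3, a procollagen protease, was at 99.7 and 113 in control hearts and 64.3 and 86.4 in knockout hearts (log2 fold change -0.51, SE 0.23, limma adjusted p = 0.809).

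Among the receptors for matrix, 2 of 16 tested were lower at an unadjusted p under 0.05 in limma, against 3.02% of all genes. Sdc4, syndecan 4, a receptor of focal adhesions, was at 216 and 268 in control hearts and 148 and 152 in knockout hearts (log2 fold change -0.68, SE 0.17, limma adjusted p = 0.618). Itga2, a collagen-binding integrin chain, was at 55.7 and 21.6 in control hearts and 12.4 and 11.5 in knockout hearts (log2 fold change -1.47, SE 0.53, limma adjusted p = 0.796). Of 15 other proteases and inhibitors tested, 2 were lower at that level, against the same 3.02% of all genes. These were Timp2 and Mmp23, with log2 fold changes of -0.48 and -1.11 (SE 0.14 and 0.45, limma adjusted p = 0.680 and 0.806).

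In the TGF-beta pathway, the main known inducer of collagen genes in fibroblasts, the median log2 fold change over 23 genes was -0.02. At an unadjusted p under 0.05 in limma, 1 was higher and 2 were lower, where 3.08% of all genes were higher and 3.02% lower. Tgfb2, a ligand, was at 85.03 and 53.9 in control hearts and 104 and 139 in knockout hearts (log2 fold change 0.82, SE 0.29, limma adjusted p = 0.788). Smad3, which carries the signal to the nucleus, was at 342 and 333 in control hearts and 256 and 249 in knockout hearts (log2 fold change -0.42, SE 0.12, limma adjusted p = 0.697). Tgfbi, a matrix protein induced by the pathway, had a log2 fold change of -0.44 (SE 0.17). Of the 9 activated fibroblast genes tested, none had an unadjusted p under 0.05, and the median log2 fold change was -0.32. Cnn1 and Meox1 had the smallest p of that list, with log2 fold changes of -0.98 and -0.45 (SE 0.47 and 0.22), while Cthrc1, Cilp2, Lrrc15 and Angpt4 were under the filter.

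Markers of the cells of the heart were read beside these values. The 14 fibroblast markers, of which 6 are genes of the set 2 stand among the other matrix genes and 1 among the receptors, summed to 18030 and 20368 normalised counts in control hearts and 15036 and 15077 in knockout hearts, lower in both knockouts. None of the 14 passed the adjusted test, 6 were lower and none higher at an unadjusted p under 0.05 in limma (Pi16, Scara5, Dpep1, Mfap5, Gsn and Dpt), where 3.02% of all genes were lower and 3.08% higher. Both knockouts were below both controls in 10 of the 14 markers, against 17.5% of all genes, and the median log2 fold change was -0.33. Gsn alone held 9482 of the sum in control replicate 2. The endothelial markers summed to between 13971 and 15501, the smooth muscle and pericyte markers to between 18191 and 20456, and both sums overlapped between the genotypes. The 8 macrophage markers summed to 3066 and 2115 in control hearts and 2222 and 2322 in knockout hearts, which overlapped. Their log2 fold changes were positive in 3 and negative in 5. Only Cd68 was lower at an unadjusted p under 0.05 in limma (log2 fold change -0.86, SE 0.28), where 3.02% of all genes were lower.

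The 6 blood markers, haemoglobin genes for the most part, summed to 41880 in knockout replicate 2 and to between 14403 and 18951 in the other 3 hearts. The atrial markers summed to 604 and 1068 in control hearts and 467 and 1153 in knockout hearts, nearly all of it Nppa, while Myl7, Sln and Bmp10 were at or near 0. The Schwann markers summed to between 90 and 147 and the epicardial and mesothelial markers to between 51 and 89, while adipocyte markers summed to at most 7 and thymus and lymphocyte markers to at most 18. The part of the cell makeup, and of the blood in knockout replicate 2, in the values of the matrix genes was not tested.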

How the data were processed

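Total RNA of whole hearts was extracted with miRNeasy columns and sequenced from strand-specific TruSeq libraries. Per the authors' methods, STAR 2.7.3a (alignment to GRCm38.p6) and Salmon 1.1.0 (quantification on GENCODE genes) were used, after which DESeq2 1.26.0 gave a size factor by which each library's counts were divided. The deposited values are this signal per gene. A second deposited table holds the authors' own comparison (fold changes, errors, p-values) and was not used. In each library 100% of the values were whole multiples of 1 read within a tolerance of 0.001, so reads could be recovered, and 1 read is worth 0.765 to 1.35 normalised counts. Depth was 19716305 to 25682093 reads in the libraries compared.

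Groups are 2 controls and 2 knockouts. Nothing in the labels says more than that they are separate mice, and 2 mice with contradictory labels were left out. Genes with a normalised count of at least 10 in 2 of the 4 libraries (14522) entered a two-sided limma 3.58.1 fit (R 4.3.3) of log2(normalised count + 1) on genotype, with trended variance. The p-values were adjusted by Benjamini-Hochberg, with a threshold of 0.05. The added 1 makes differences of low genes look smaller than they are. Alternatives covered the pseudocount, filter, scaling, trend, robust fitting, a replicate block, each library left out, and count tests of the recovered reads (edgeR 4.0.16, DESeq2 1.42.0). The procedure was tested on simulated data, with changes of 2-fold or more in genes with a mean normalised count of at least 100. Smaller changes, and changes in lower genes, were not part of that test.

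The genes, lists and tests were chosen with earlier results of these data known. Named genes are the 3 of each role with the highest mean, the 5 in each direction with the smallest p among those whose groups did not overlap, those under the filter, and the 2 of each pathway list with the smallest p. Others named in the text, Col1a1 among them, and the ratios Col4a3 to Col4a4 and Col4a5 to Col4a6 were chosen after their values were seen. Positions and exon lengths are from GENCODE vM21 (GRCm38) and promoter sequences from RefSeq. Col3a1, Col20a1, Col7a1, Loxl2 and Pdgfra share exon positions on their strand with another annotated gene, so their counts are uncertain to that extent. Plots were made in Python 3.11.15 with matplotlib 3.10.9.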

Additional observations from a re-analysis of the deposited data

Results flagged for a closer look

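These values lie in the libraries of the 2 mice whose title and genotype labels contradict each other, which entered no comparison. They are listed because each exceeded 10 normalised counts and 2 times the highest control. Col7a1 was at 113 normalised counts in the library of mouse 586H and at 6.12 in that of mouse 585H, against 4.94 to 16.8 in the 4 hearts compared. Col22a1, under the filter in the comparison, was at 20.1 in 585H and 12.2 in 586H, against 1.53 to 4.94. Col11a2 was at 84.8 in 585H and 27.1 in 586H, against 12.7 and 13.5 in control hearts and 38.7 and 26.8 in knockout hearts.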

How the results depend on the processing

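No gene of the set and none of the listed pathway genes was called under any of the 15 alternatives, and the lowest adjusted p of a gene of the set ranged from 0.237 to 0.99956, the lowest value being that without control replicate 1. Over all genes the count called was 17 and ranged from 6 (no mean-variance trend, any value above 0 in 2 libraries, or without either knockout) to 63 (DESeq2), with 24 for a filter of 50 or robust fitting and 43 without control replicate 1. At an unadjusted p under 0.05, the 4 genes of the set became 2 with a filter of 50 or without the trend and 2 to 13 with 1 library left out, and the 19 other pathway genes became 10 without the trend and 10 to 24 with 1 library left out. The median log2 fold change of the set ranged from -0.20 to 0.027 with 1 library left out. The log2 ratio of the summed level, -0.073 per nuclear count, was 0.21 as a share of all counts and -0.24 to 0.077 with 1 library left out.

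Of 488 values of 33 named genes, 466 kept their direction. Besides Col4a1 (0.0093 with equal nuclear totals, 0.00016 with TMM scaling, 0.0032 with edgeR), every change of sign among these genes came from leaving out 1 library. Of the other genes of the set, Col4a5 turned with equal nuclear totals (0.0076) and Col4a6 with edgeR (-0.065) and DESeq2 (-0.059). Others turned with 1 library left out, among them Col1a1, Col18a1, Col20a1, Col25a1 and Col27a1. Without control replicate 1 the log2 fold change was 0.019 for Col1a1 and 0.25 for Col18a1, and without control replicate 2 it was -0.59 and -0.56. With 1 library left out, the log2 fold changes of the named genes ran from -0.84 to 0.19 for Col13a1, -0.71 to 0.057 for Col14a1, -0.023 to 0.53 for Col15a1, -0.43 to 0.045 for Col26a1, -0.12 to 0.11 for Col4a1, -0.098 to 0.23 for Col4a2, -0.19 to 0.38 for Col6a3, -0.40 to 0.11 for Eln, -0.25 to 0.42 for Fn1, -0.90 to 0.025 for Loxl2, -0.13 to 0.065 for Mmp2, -0.70 to 0.41 for Postn and -0.21 to 0.11 for Sparc. With 1 library left out, 1 arm holds a lone sample, which is assumed to vary like the other group; the cause of the changes was not tested.

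The labels name nothing that replicates with the same number share besides it. With 2 pairs, their deviations correlated across 14522 genes with r = 0.31 and rho = -0.010, which does not settle whether they are paired. With a replicate block, 30 genes were called over all genes, 0 genes of the set were called and 6 had an unadjusted p under 0.05 in limma. Over all genes, 867 of 14522 had such a p with the block. With 2 hearts per group, small differences cannot be detected, and for genes under about 100 normalised counts the intervals are wide.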

Other observations

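The hearts of mice 585H and 586H, whose labels contradict each other, are given as values only. The set summed to 5689 and 5581 per 1000000 nuclear normalised counts in them, below the 4 hearts compared (6393 to 8010). Col3a1 was at 4507 and 4129 normalised counts, Col1a1 at 1115 and 769, Col4a1 at 11384 and 11324, Sparc at 3615 and 3845 and Postn at 414 and 378. In 16 of the 50 genes tested, both libraries were below all 4 hearts compared, which was so for 8.79% of all genes tested. Col6a1 to Col6a2 was 1.14 and 1.05, and Col4a1 to Col4a2 was 1.66 and 1.61.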
